A study of Mus musculus with 4 samples.

Results

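Among the 1011 endothelial cells of the mouse aortic arch library, 304 cells were set apart by high joint RNA levels of Edn1, Bmp4 and Thbs1. They were chosen from the arch library alone, which gave 2172 of the 14831 cell barcodes that passed the filters in all 4 libraries. Each cell's score was its unique molecular identifiers (UMIs, counts of single captured RNA molecules) of the 3 genes per 10000 UMIs of the cell, and cells at or above percentile 70 of the arch endothelial cells were taken. The RNA levels of these 3 genes in the arch library therefore chose the cells and are given as description, as is every contrast within that library. The cut lay at 15.5. The lowest member scored 15.46 and the highest cell left out 15.43. Within 10% of the cut lay 74 cells, 27 of them at or above it. The members are the upper range of the score. A percentile cut mostly leaves near neighbours on both sides, so these values cannot show whether members form a separate cluster, which was not tested.

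Edn1 encodes endothelin-1, a peptide that constricts vessels and is released by endothelial cells after cleavage by converting enzymes such as Ece1. Bmp4 encodes a secreted ligand of the bone morphogenetic protein (BMP) family, which signals through type I and type II receptors to SMAD proteins and to Id target genes, and which is known as a signal that endothelium releases under disturbed flow. Thbs1 encodes thrombospondin-1, a secreted matrix protein that binds CD36 and CD47 and activates latent TGF-beta. The inner curve of the aortic arch is a textbook site of disturbed, turbulent flow, while the descending aorta is mostly exposed to steady laminar flow, under which endothelium makes the transcription factors KLF2 and KLF4 and nitric oxide synthase.

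All 4 libraries came from C57BL/6 mice. The arch library holds cells of the young aortic arch intima, pooled from 8 mice. Descending libraries a and b hold intimal cells of the aged descending aorta, each pooled from 6 mice, and the fourth library holds cells of aged adventitia, for which a number of mice is not given in the sources used here. Cells of the intima were loosened with trypsin and by scraping, with actinomycin D added to stop new transcription, and red cells were lysed. No further allele or treatment, and no sex, is given, and the ages come from the sample titles. Region, age and library cannot be told apart between arch and descending samples, and with 1 arch library the contrast within it has no replicate. The young arch library is a mixture of whole arches, so members cannot be placed on its inner or outer curve.

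The same gate found 1391, 1176 and 249 endothelial cells in descending a, descending b and the adventitia. It asked for at least 3 UMIs of Pecam1 and Cdh5 together, no UMI of the leukocyte gene Ptprc and fewer than 15 UMIs of Dcn, Col1a2 and Col3a1 together. The deposited files held 2095, 2178, 2187 and 9347 barcodes with 13715023, 13181305, 18624525 and 29370967 UMIs for descending a, descending b, arch and adventitia. Any pair of libraries shared between 4 and 31 barcodes. The 304 members had a median of 6601.5 UMIs and the 707 remaining arch endothelial cells 7424, and mitochondrial genes took a median of 2.93% and 2.96% of their UMIs.

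Endothelial markers that the gate did not use were present in the members. The 10 markers other than Pecam1 and Cdh5 summed to 4118 CPM (UMIs of a gene per 1000000 UMIs) in members and 4266 CPM in the remaining arch cells, with Egfl7 at 1002 CPM and Vwf, the von Willebrand factor gene, at 716 CPM in members. Lymphatic markers summed to 21.1 CPM, with Prox1, Ccl21a, Mmrn1 and Reln at 0, and no member had 3 of them. The 10 capillary and venous markers summed to 458 CPM in members and 405 CPM in the remaining cells, mostly Plvap (279 CPM in members) and Selp (171 CPM), and 11 members had at least 3 of them, while Gpihbp1, Car4, Aplnr and Btnl9 were at 0. The 8 valve and endocardial markers summed to 66.7 and 63.8 CPM, with Hapln1, Tmem108 and Edn3 at 0 in members. RNA of other cell types was also counted in these barcodes. The 8 fibroblast markers summed to 1004 CPM in members and 796 CPM in the remaining cells, the 8 smooth muscle markers to 689 and 444 CPM, and the 5 red cell genes to 2855 and 21221 CPM. All 8 fibroblast and all 8 smooth muscle markers were above 0 in members. The part of such RNA in the results was not tested, except where a value is given.

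Bmp4 carried most of the score. It gave 60.4% of the members' score UMIs and was the leading gene in 261 of the 304 members, while Edn1 gave 23.0% and led in 23 and Thbs1 gave 16.6% and led in 9. UMIs of all 3 genes were found in 214 members, which was 70.4%, of 2 genes in 78 and of 1 gene in 12. A member held between 4 and 76 score UMIs, with a median of 17. Edn1 stood at 608 CPM in members and 86.0 CPM in the remaining arch cells, Bmp4 at 1595 and 524 CPM, and Thbs1 at 439 and 82.1 CPM. At least 1 UMI of Edn1 was found in 85.2% of members, of Bmp4 in 99.7% and of Thbs1 in 81.6%. The 37 leukocytes of the arch library had UMIs of Edn1, Bmp4 and Thbs1 in 5.41%, 21.6% and 8.11% of cells, at a median depth of 3582 UMIs.

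**Figure D1:**
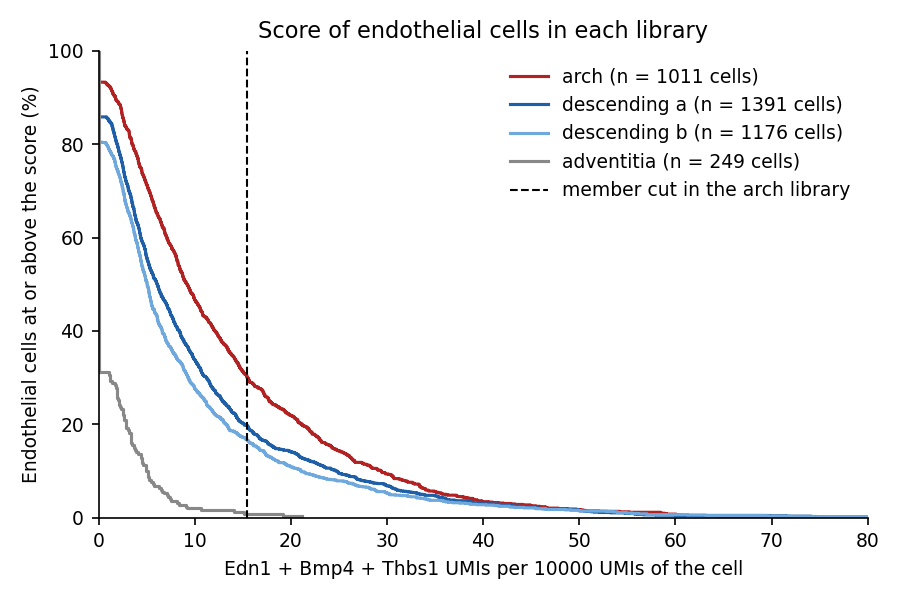
Share of endothelial cells (vertical axis, percent) with a score at or above the value on the horizontal axis (Edn1, Bmp4 and Thbs1 UMIs per 10000 UMIs of the cell), 1 curve for each library. At the dashed cut of 15.5 the curves stand at 30.1% in the arch, 19.7% and 16.6% in descending a and b, and 0.803% in the adventitia.

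Cells this rich in the 3 genes were not restricted to the arch. The arch share of 30.1% at its own cut is set by the rule. At the same cut lay 19.7% of the endothelial cells of descending a (95% exact binomial interval 17.6 to 21.9), 16.6% of those of descending b (14.5 to 18.8) and 2 of 249 in the adventitia (0.803%, 0.0974 to 2.87). With each cell thinned to 2000 UMIs the arch cut was 15. All cells tied at that cut were counted, so the arch share is above 30.1%. The shares were 38.8% in the arch, 26.4% and 23.3% in descending a and b, and 3.18% in the adventitia. This left out 47, 83 and 29 shallower cells of descending a, descending b and the adventitia. The intervals cover counting error only, and the shares were not tested.

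The 3 genes rose together in single cells. When arch endothelial cells were ranked by 2 of the genes alone and the same share of cells was taken, the level of the gene left out was higher in the upper group for each choice. Edn1 was 528 CPM in cells high in Bmp4 and Thbs1 and 122 CPM in the others, a ratio of 4.32. Bmp4 was 1351 and 604 CPM, a ratio of 2.24, and Thbs1 was 390 and 100 CPM, a ratio of 3.89. The descending libraries, which played no part in choosing the members, showed the same order. Edn1 differed 4.04-fold in descending a and 4.62-fold in descending b, Bmp4 2.68-fold and 2.64-fold, and Thbs1 5.00-fold and 7.75-fold. With cells thinned to 2000 UMIs, the correlation of log2(UMIs + 1) across the 1011 arch cells was 0.32 for Edn1 with Bmp4, 0.28 for Edn1 with Thbs1 and 0.32 for Bmp4 with Thbs1. The cells share 1 library and 1 depth. Fos, an early gene induced by handling, had correlations of 0.0088 with Edn1, -0.11 with Bmp4 and -0.070 with Thbs1 in the same cells.

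**Figure D2:**
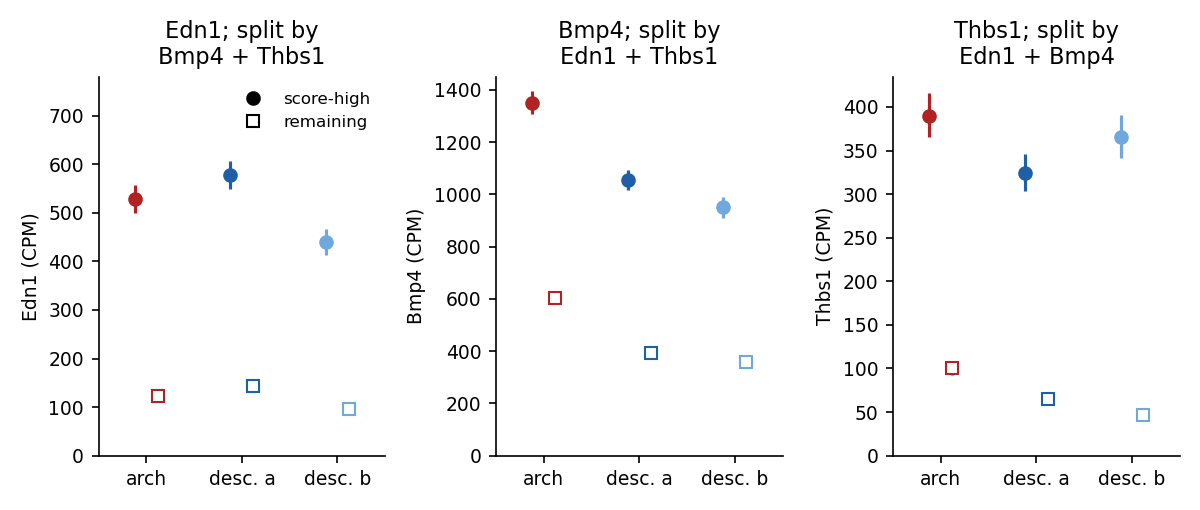
Level of each score gene (CPM, vertical axis) in endothelial cells ranked only by the other genes of the score, for the arch and both descending libraries. Filled circles are the score-high cells, open squares the remaining cells, and bars 95% exact Poisson intervals of counting error; the score-high value is the higher one in all 9 pairs.

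Ccn1 and Sfrp2, genes that are not part of the score, were also high in members, and Mecom was nearly level. Ccn1 encodes a matricellular protein of the CCN family and is an early target of the coactivator YAP. It stood at 1751 CPM in members and 765 CPM in the remaining arch cells, and at 1138 and 1102 CPM in the score-high cells of descending a and b against 427 and 503 CPM in their remaining cells. Sfrp2 encodes a secreted modulator of Wnt signalling and stood at 277 and 45.3 CPM in the arch, 58.6 and 7.15 CPM in descending a, and 28.3 and 9.65 CPM in descending b. For Ccn1 each score-high value lay above every remaining one. For Sfrp2 this held within each library but not across them, since the score-high cells of descending b lay below the remaining arch cells. Mecom encodes a zinc finger transcription factor of arterial endothelium and stood at 164 and 139 CPM, 210 and 182 CPM, and 179 and 149 CPM, with overlap across libraries.

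Sfrp2 is also a fibroblast gene and stood at 656 CPM in the 76 arch cells over the fibroblast limit of the gate. Dcn, the main fibroblast transcript, which the gate limits, stood at 514 CPM in members and 349 CPM in the remaining arch cells, at 458 and 308 CPM in descending a, and at 501 and 332 CPM in descending b. Dcn was thus higher in the same cells as Sfrp2 in each library. The 76 arch cells over the fibroblast limit had 12294 CPM of Dcn. Sfrp2 per Dcn was 0.539 in members, 0.130 in the remaining arch cells and 0.0533 in those 76 cells. For score-high, remaining and over-limit cells it was 0.128, 0.0232 and 0.0191 in descending a, and 0.0566, 0.0291 and 0.0397 in descending b. The part of fibroblast RNA in the Sfrp2 level was not tested. At least 1 Sfrp2 UMI was found in 53.3% of members at a median of 6601.5 UMIs, against 13.5% of arch leukocytes at 3582 UMIs.

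The starts of Edn1 and Ccn1 are shown beside that of Bmp4 because all 3 genes stood out in the same cells and the search for a YAP/TEAD motif separated them. The sequences are the 250 bases before the RefSeq start of each gene on GRCm38.p6, read 5′ to 3′ on the gene's own strand, from chr13:42301226-42301475 (plus strand) for Edn1, chr3:145649986-145650235 (minus strand) for Ccn1 and chr14:46390670-46390919 (minus strand) for Bmp4. Capitals mark a match to the TEAD core GGAATG on either strand, here on the strand opposite to the gene.
Edn1: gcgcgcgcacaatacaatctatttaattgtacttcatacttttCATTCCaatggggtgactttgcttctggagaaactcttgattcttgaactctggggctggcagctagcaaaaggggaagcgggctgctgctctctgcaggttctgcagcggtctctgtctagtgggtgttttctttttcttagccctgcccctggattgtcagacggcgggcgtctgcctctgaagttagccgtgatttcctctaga
Ccn1: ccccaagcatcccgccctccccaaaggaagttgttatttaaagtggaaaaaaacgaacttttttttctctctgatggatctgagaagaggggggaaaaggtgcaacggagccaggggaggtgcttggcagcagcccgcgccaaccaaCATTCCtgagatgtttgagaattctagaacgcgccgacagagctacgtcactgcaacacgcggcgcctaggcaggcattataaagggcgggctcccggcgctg
Bmp4: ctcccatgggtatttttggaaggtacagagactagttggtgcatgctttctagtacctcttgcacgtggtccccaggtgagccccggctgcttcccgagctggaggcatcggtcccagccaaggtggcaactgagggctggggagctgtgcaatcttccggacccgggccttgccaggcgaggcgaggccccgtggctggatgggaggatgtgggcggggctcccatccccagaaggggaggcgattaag
The first base of the match lay at -207 from the start of Edn1 and at -103 from that of Ccn1. The Bmp4, Sfrp2, Mecom and Klk10 windows held none. The windows of the score gene Thbs1 and of Ccn2 are not reported here. Neither this motif nor the AP-1 core TGANTCA overlapped the other in the 3 windows, which held no AP-1 core.

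Within the arch, 178 of 7416 genes with enough UMIs were at least 1.5-fold higher in members (2.4%), the 3 score genes among them, and 289 were at least 1.5-fold lower (3.9%). Such a gene needed 100 UMIs over both groups and a UMI in at least 10% of the cells of the higher group. These counts describe 1 library and carry no test. After Sfrp2, with a ratio of 6.12, the highest ratios belonged to the secreted matrix protein gene Coch (34.2 and 7.86 CPM), the cell surface glycoprotein gene Emb (58.7 and 14.9 CPM), the metalloprotease gene Adam33 (38.8 and 10.3 CPM) and Ccn2, which encodes connective tissue growth factor (27.0 and 7.34 CPM). Lpar1, a receptor of lysophosphatidic acid, stood at 32.5 and 9.44 CPM, and the Wnt binder Frzb at 103 and 32.3 CPM. The endothelial sialomucin gene Emcn was the most abundant of the set, at 486 and 180 CPM. Gm17501, Lbh, Plscr2, Bex4, Sept4 and Galnt15 were also among the 15 highest, with ratios from 2.66 to 2.82. Gm17501 is a long noncoding RNA that starts beside Ccn1 on the opposite strand.

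Klk10 led the endothelial genes that were lower in members. It encodes a secreted kallikrein-related protease that is known to be raised by laminar flow and stood at 143 CPM in members and 499 CPM in the remaining arch cells, with a UMI in 44.1% and 76.1% of cells. Stmn2, a microtubule regulator that with Klk10 and Adra2a marks other aortic endothelial cells of these data, stood at 102 and 291 CPM. Sema3g, a semaphorin of arterial endothelium, was 7.17 and 22.4 CPM, and Cst6 and Galnt18 were 8.86 and 29.2 CPM and 5.06 and 17.3 CPM. The 4 haemoglobin genes had still lower ratios, from 0.114 to 0.155, and Wfdc17 and Retnla were 0.200 and 0.312. Without barcodes with over 1% haemoglobin UMIs, which left 996 of the 1011 arch cells, the log2 ratio of Hba-a1 became 0.13 and that of Hbb-bt went from -2.91 to 0.036.

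**Figure D3:**
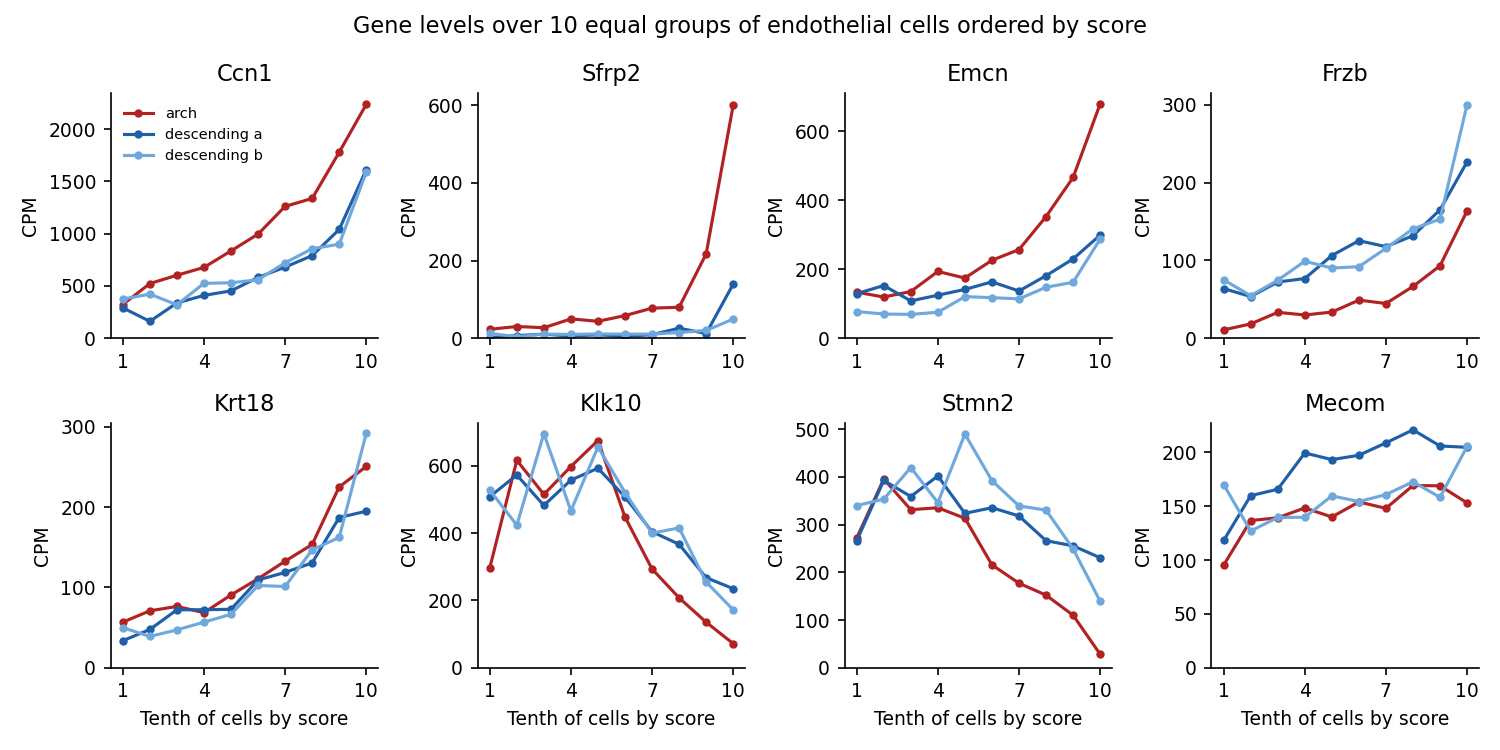
Level (CPM, vertical axis) of 8 genes in 10 equal groups of endothelial cells ordered by score (horizontal axis, 10 is highest), for the arch and both descending libraries. In the arch Ccn1 runs from 323 to 2237 CPM and Sfrp2 from 23.1 to 600.1 CPM between the lowest and highest group, while Klk10 is highest at 675 CPM in the fifth group and 72.0 CPM in the highest.

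These levels followed the score and did not switch at the cut. From the lowest to the highest of 10 equal groups of arch cells, Ccn1 went from 323 to 2237 CPM, Emcn from 134 to 680 CPM and Frzb from 10.8 to 164 CPM. Sfrp2 was concentrated at the top, at 79.8 CPM in the eighth group, 217 CPM in the ninth and 600.1 CPM in the highest. Klk10 was not highest in the cells with the lowest score: it stood at 297 CPM in the lowest group, 675 CPM in the fifth and 72.0 CPM in the highest. Stmn2 ended at 28.5 CPM in the highest group. Mecom kept between 137 and 169 CPM from the second to the highest group and stood at 95.3 CPM in the lowest.

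The members also differed among themselves. The 152 members with the higher scores had 472 CPM of Sfrp2 against 104 CPM in the other 152, and 42.2 CPM of Stmn2 against 155 CPM. Ccn1 was spread over the members, with a median of 10 UMIs a cell and a highest value of 107, and the 10 richest cells held 13.3% of its UMIs. Sfrp2 was less even, with a median of 1 UMI and 34.1% of its UMIs in 10 cells. At least 1 UMI of Klk10, Stmn2 or Adra2a was found in 184 members, at a median of 8583.5 UMIs against 5090.5 in the 120 without. Those 120 members had 528 CPM of Sfrp2, 672 CPM of Emcn and 2356 CPM of Ccn1, and the 184 had 178, 413 and 1513 CPM. These splits differ in depth and are descriptions of cells of 1 library. Fos did not follow this order, with 124 CPM in the 120 members and 175 CPM in the 184.

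To ask which other genes go with the score in libraries that the rule did not use, the same gate and each library's own percentile 70 were applied to the descending libraries. This gave 418 score-high and 973 remaining cells in descending a and 353 and 823 in descending b, with cuts of 11.2 and 9.32. Summed counts were compared with edgeR's quasi-likelihood test with the library as a block. Of 10992 genes tested, 915 passed an adjusted p under 0.05 (8.32%), 431 of them higher in score-high cells (3.92%) and 484 lower (4.4%), and 2031 had an unadjusted p under 0.05. Of the 431, 426 were outside the genes of the score and the gate. The fit has 4 sums and 1 residual degree of freedom, so its p-values rest on the spread between these 2 libraries, pooled over genes. DESeq2 called 218 genes and the fit without the library block 115.

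Of the 175 arch-high genes outside the score and the gate, 99 were called higher in score-high descending cells and 0 lower, and their median log2 fold change was 0.53, against 0.0044 over all genes tested. Of the 283 arch-low genes that could be tested, 133 were called lower and 1 higher, with a median of -0.45. Among 6925 genes past neither fold in the arch, 220 were called higher and 257 lower. Of 910 called genes outside the score and the gate, 902 had the same sign in descending a and b. The test was fitted on these libraries, so that agreement is largely set by the call itself. Of the 710 called genes that had enough UMIs in the arch, 663 had the same sign there. Across 7383 genes the correlation of the arch log2 ratio with the descending log2 fold change was 0.56, as a description, since genes are not independent replicates.

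**Figure D4:**
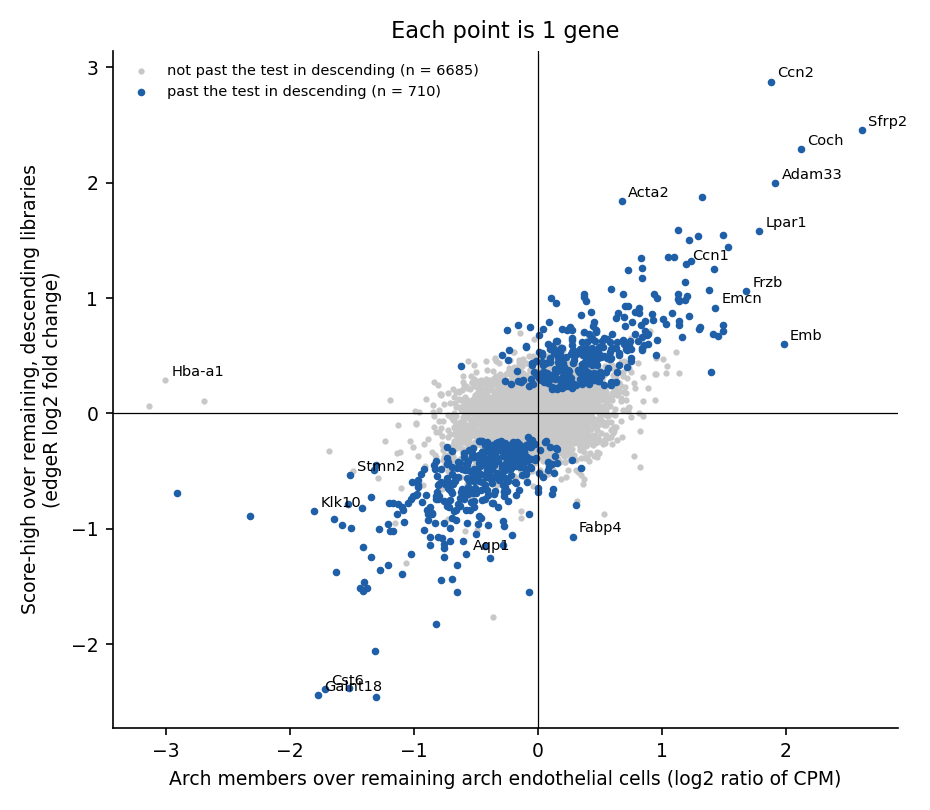
Each point is 1 gene outside the score and the gate: the log2 ratio of CPM of members over remaining arch cells (horizontal axis) against the edgeR log2 fold change of score-high over remaining cells in the descending libraries (vertical axis), with genes past the test in blue. Sfrp2, Coch, Ccn2 and Adam33 lie at the upper right and Galnt18 and Cst6 at the lower left, while Hba-a1 lies far left near 0 on the vertical axis.

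Sfrp2 and Ccn1 were called in the descending libraries and Mecom narrowly so. Sfrp2 rose with a log2 fold change of 2.45 ± 0.21 (SE, edgeR adjusted p = 7.34e-10), but its rise was larger in descending a (3.03) than in descending b (1.55). The rise was 0.99 with a stricter gate (at least 5 UMIs of Pecam1 and Cdh5, fewer than 5 of the 3 fibroblast genes). In the arch the log2 ratio of Sfrp2 was 2.61, and 2.44 with that gate. Ccn1 rose by 1.29 ± 0.079 (edgeR adjusted p = 4.69e-13), and Mecom by 0.25 ± 0.076 (edgeR adjusted p = 0.033), a call that was lost in 7 of 19 alternatives with a test. All 15 of the arch genes with the highest ratios were called higher. Coch rose by 2.29 ± 0.081 (edgeR adjusted p = 8.00e-19), with 193 CPM against 41.8 CPM in descending a and 259 against 51.4 CPM in descending b. Emcn rose by 0.92 ± 0.081 (edgeR adjusted p = 1.54e-09). Krt18, a keratin that the mesothelial marker list also holds, rose by 1.32 ± 0.087 (edgeR adjusted p = 3.01e-12), while the mesothelial genes Msln and Upk3b were at 1 UMI and 0 UMIs in the score-high descending cells.

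The 10 largest rises in the descending libraries included those of Abcc12, Ccn2, Gdf6, P4ha3, Spp1, Sfrp2, Nrg1, Coch and Angpt2, each with a log2 fold change of at least 2.28. Several are low in counts: Abcc12 rested on 15 UMIs against 4 and Spp1 on 31 against 12. Gdf6 encodes another BMP family ligand and rose by 2.79 ± 0.33 (edgeR adjusted p = 2.55e-07). Spp1, which encodes osteopontin, changed sign to -2.13 when cells were ranked by Edn1 alone.

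Targets of YAP and of serum response factor, the coactivator pathways that answer to stretch and cell shape, were more often higher than lower in score-high descending cells. Of 15 tested, 9 rose and 1 fell, with a median of 0.49, against 3.92% and 4.4% of all genes. Ccn2 rose by 2.88 ± 0.16 (edgeR adjusted p = 9.47e-14), from 6.22 to 44.3 CPM in descending a and from 8.67 to 64.1 CPM in descending b. Ajuba, a LIM protein that restrains the kinases upstream of YAP, rose by 1.36 and Amotl2, an angiomotin, by 0.93. Crim1, Vcl, Flna, Tpm1, Myl9 and Ccn1 rose as well, and Amotl1 fell by 0.35. In the arch, 4 of the 15 were past the fold, all higher. DESeq2 called 5 of the 15 higher and 0 lower. The list holds contractile genes, and the smooth muscle markers summed to 284 CPM in score-high cells of each descending library against 136 and 126 CPM in the remaining cells. The part of smooth muscle RNA in this count was not tested.

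A TEAD core was counted in the 250 bases before the start of all genes with a RefSeq promoter. A gene was counted as holding it if any of its promoters did. It was present in 14.4% of 27025 genes and in 12.6% of the 8650 that were tested in the descending libraries. Of the genes called higher that had a promoter, 71 of 319 held it, which was 22.3%. Of those called lower, 46 of 358 held it, which was 12.8%. The AP-1 core was present in 8.46% and 7.82% of the called genes and in 5.19% of those tested. Both strands were searched. These shares are descriptions of letters, were not tested, and do not show binding.

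Genes known to follow laminar flow were mostly lower and genes of disturbed flow and leukocyte adhesion mostly higher. Of 12 laminar flow genes tested, 9 fell and 2 rose, against 4.4% and 3.92% of all genes. Their median was -0.47. DESeq2 called 4 lower and 2 higher. Klf2 stood at 2181 CPM in score-high and 3010.03 CPM in remaining cells of descending a and at 1562 and 2899 CPM in descending b, and fell by 0.66 ± 0.075 on the log2 scale (edgeR adjusted p = 1.82e-07). Aqp1, a water channel, fell by 1.22 ± 0.081 (edgeR adjusted p = 3.01e-12), Klk10 by 0.84 ± 0.076 (edgeR adjusted p = 2.19e-09) and the nitric oxide synthase gene Nos3 by 0.33 ± 0.078 (edgeR adjusted p = 0.00408). Klf4, Thbd, Gja5, Slc9a3r2 and Nqo1 also fell. Gja4, a gap junction gene, rose by 0.60 and Cyp1b1 by 0.42. In members of the arch, Klf2 stood at 1766 CPM against 2575 CPM in the remaining cells and Nos3 at 211 against 288 CPM.

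Of 12 genes of disturbed flow and adhesion, 8 rose and 0 fell, while 3.92% of all genes rose and 4.4% fell. The median of the 12 was 0.42. Angpt2, which encodes a destabilizing ligand of the receptor TIE2, rose by 2.28 ± 0.47 (edgeR adjusted p = 0.00123) on 26 UMIs against 12. The chemokine gene Cxcl1 rose by 0.93 and Cxcl12 by 0.73, the adhesion genes Icam1 by 0.56 and Selp by 0.27, and Nox4, Pdgfb and Ctsl also rose. Vcam1, the adhesion gene most used as a marker of disturbed flow, had a log2 fold change of -0.06 ± 0.072 (edgeR adjusted p = 0.728), at 892 and 968 CPM in descending a and 924 and 958 CPM in descending b. With the stricter gate 3 of 11 rose and 2 fell, and DESeq2 called 2 of 12.

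**Figure D5:**
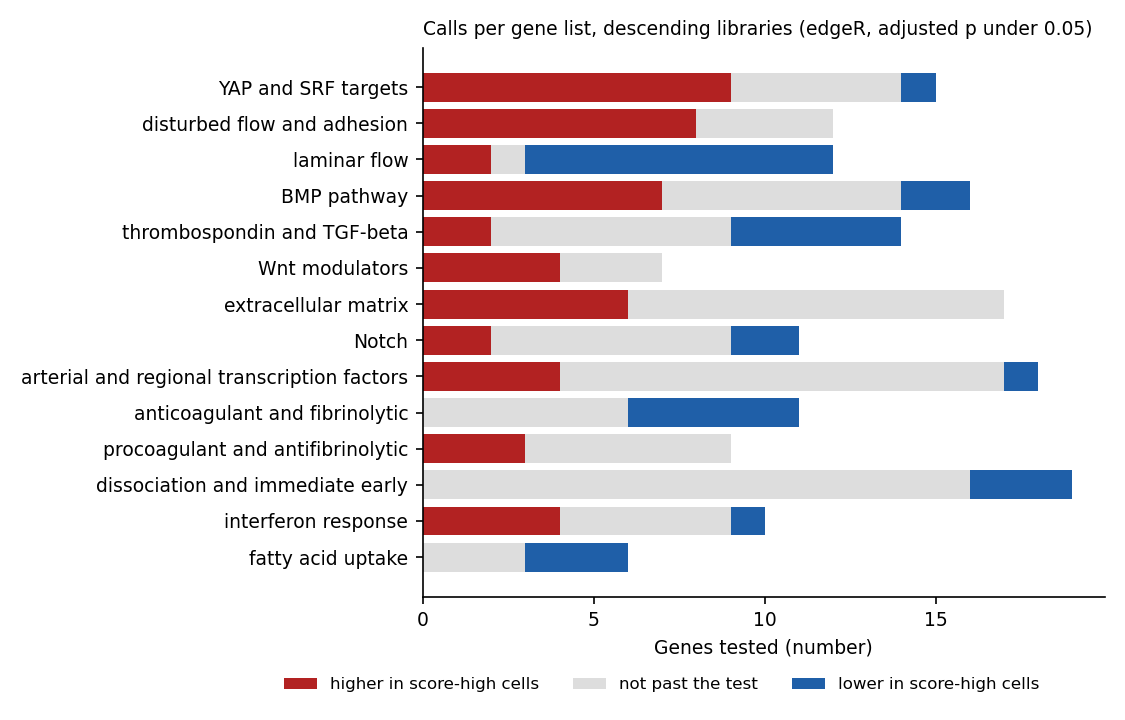
Number of genes tested in each list (horizontal axis) that were higher in score-high descending cells (red), lower (blue) or not past the test (grey), edgeR adjusted p under 0.05. The YAP and SRF list holds 9 higher and 1 lower of 15, the laminar flow list 2 higher and 9 lower of 12, and the anticoagulant list 0 higher and 5 lower of 11.

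In the BMP pathway the inhibitory SMAD genes rose and the Id target genes moved both ways. Of 16 genes of the pathway tested, 7 rose and 2 fell, against 3.92% and 4.4% of all genes. Their median was 0.23. DESeq2 called 4 higher and 0 lower, so that the falls of Id1 and Tmem100 were lost. The ligand gene Bmp6 rose by 1.11 ± 0.29 (edgeR adjusted p = 0.0112), the co-receptor gene Eng by 0.60 and the secreted binder Fstl1 by 0.53. The inhibitory SMAD genes Smad6 and Smad7 rose by 0.84 ± 0.082 (edgeR adjusted p = 8.65e-09) and 0.51 ± 0.080 (edgeR adjusted p = 4.03e-05). Of the Id genes, Id2 rose by 0.69 and Id3 by 0.23, while Id1 fell by 0.52 ± 0.087 (edgeR adjusted p = 7.98e-05), and the endothelial BMP9 target Tmem100 fell by 0.91. In members of the arch Smad6 stood at 101 CPM against 62.2 CPM, Id2 at 234 against 154 CPM and Id1 at 242 against 304 CPM. The secreted antagonist Nog had 0 to 1.40 CPM in every group and Grem1 was at 0 in every group.

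By edgeR, which called 8.32% of all genes tested, 2 genes of the endothelin system fell. Genes of the thrombospondin and TGF-beta list moved both ways. DESeq2 called 0 of the first list, and 0 higher and 2 lower of the second. In the endothelin system, 5 genes outside the score were tested, 2 fell and 0 rose: Nos3 and the receptor gene Ednrb, the latter by 2.08 ± 0.40 (edgeR adjusted p = 0.000588) at levels of 1.79 to 13.7 CPM. The converting enzyme gene Ece1 had a log2 fold change of 0.18 ± 0.073 (edgeR adjusted p = 0.16), at 715 CPM in members and 652 CPM in the remaining arch cells. Among 14 genes of thrombospondin and TGF-beta, 2 rose and 5 fell, with a median of -0.03. Ltbp2, a binder of latent TGF-beta, rose by 1.32. The thrombospondin receptor gene Cd36, Tgfb1, the receptor gene Tgfbr2, Tgfbi and the protease gene Adamts1 fell, Adamts1 by 1.24 ± 0.084 (edgeR adjusted p = 4.40e-12).

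Some secreted Wnt modulators and matrix genes were higher in score-high cells, in a test that called 3.92% of all genes higher and 4.4% lower. Of the 7 genes of the Wnt modulator list that were tested, 4 rose and 0 fell: Sfrp2, Rspo3, Frzb and Sfrp1. Rspo1, a Wnt modulator outside the list, fell by 4.84, and the ligand gene Wnt2 by 3.12. DESeq2 called 3 of the 7. Frzb rose by 1.06 ± 0.078 (edgeR adjusted p = 3.32e-11), and Sfrp1, the most abundant, by 0.39, with 1947 CPM in members and 1524 CPM in the remaining arch cells. Of 17 extracellular matrix genes, 6 rose and 0 fell, and DESeq2 also called 6 higher. Of 5 fibroblast markers, Lum and Serpinf1 rose in the same cells, by 0.60 and 0.43, and the part of fibroblast RNA in the matrix genes was not tested. Fbln5, which organises elastic fibres, rose by 1.04 ± 0.084 (edgeR adjusted p = 2.76e-10) and stood at 741 CPM in members and 339 CPM in the remaining arch cells. Fn1, which encodes fibronectin, rose by 0.64, elastin (Eln) by 0.57, Col4a1 of the basement membrane by 0.57, Sparc by 0.37 and Bgn by 0.36.

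Several genes that restrain clotting fell and a few that favour it rose. Of 11 anticoagulant and fibrinolytic genes, 5 fell and 0 rose, with a median of -0.28. Of all genes tested, 4.4% fell and 3.92% rose. Plat, which encodes tissue plasminogen activator, fell by 0.97 ± 0.083 (edgeR adjusted p = 7.34e-10), from 216 to 98.9 CPM in descending a and from 332 to 181 CPM in descending b. The ectonucleotidase gene Entpd1 fell by 0.71, S100a10 by 0.49, Nos3 by 0.33 and Thbd, which encodes thrombomodulin, by 0.28. Of 9 procoagulant and antifibrinolytic genes outside the score, 3 rose, the thrombin receptor gene F2r and Selp among them, and 0 fell. F2r rose by 0.65 ± 0.079 (edgeR adjusted p = 5.45e-07). DESeq2 called 2 of the 11 lower and 1 of the 9 higher. Nos3 and Thbd are also in the laminar flow list and Selp in the disturbed flow list, so these counts are not independent.

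Of 18 arterial and regional transcription factors tested, Heyl, Hey2, Gata6 and Mecom rose and the venous and lymphatic factor Nr2f2 fell. The median of the 18 was 0.02, while over all genes tested 3.92% rose and 4.4% fell. Of 11 Notch genes, Heyl and Hey2 rose, and Hes1 and the ligand gene Dll1 fell, Dll1 by 0.74 ± 0.087 (edgeR adjusted p = 2.79e-07). Among 10 endothelial markers outside the gate, Emcn and Eng rose and Tie1, Kdr and the tight junction gene Cldn5 fell, Cldn5 by 0.78 ± 0.070 (edgeR adjusted p = 1.95e-09). Cldn5 stood at 348 CPM in members and 799 CPM in the remaining arch cells. Stmn2 fell by 0.54 and Adra2a rose by 0.37, so the 3 genes that mark other aortic endothelium did not move as a set. DESeq2 called Notch genes 1 higher and 1 lower, transcription factors 1 higher and 0 lower, and endothelial markers 2 higher and 1 lower. Of 19 immediate early and dissociation genes, Btg2, Hspa1a and Nr4a1 fell and 0 rose, and DESeq2 called 0 of them.

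Contractile genes rose in score-high cells. Of 5 smooth muscle markers tested, Acta2, Tagln, Myl9 and Mylk rose, while 3.92% of all genes did. Acta2 rose by 1.84 ± 0.11 (edgeR adjusted p = 1.48e-13), from 39.3 to 120 CPM in descending a and from 27.8 to 120 CPM in descending b. Of 8 mesenchymal transition genes, Acta2, Tagln and the factor Twist1 rose and 0 fell. The 8 smooth muscle markers summed to 284 CPM in score-high and 136 CPM in remaining cells of descending a, and to 284 and 126 CPM in descending b. Myh11 was at 0 in score-high cells of descending a and Des in those of descending b. DESeq2 called 2 of the 5 smooth muscle and 2 of the 8 mesenchymal transition genes. With barcodes of the highest doublet scores left out, 1088 genes were called in place of 915, and the part of smooth muscle RNA in these rises was not tested.

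The largest falls included lymphatic genes. Ptn, Mmrn1, Rspo1, Nppc, Ccl21a, Ret, Nts, Stc1, Wnt2 and Ramp3 had log2 fold changes from -6.86 to -2.70. Mmrn1 and Ccl21a are lymphatic markers. At least 3 lymphatic markers were found in 14 of 973 remaining and 0 of 418 score-high cells of descending a, and 85.1% of the lymphatic UMIs of those remaining cells lay in 10 cells. Without barcodes with 3 lymphatic or 3 capillary markers, 1033 genes were called, and Ccl21a went from -4.25 to -0.28 (edgeR adjusted p = 0.702). Mmrn1, Nts, Stc1 and Wnt2 were then no longer among the genes tested. Ptn, Rspo1, Nppc, Ret and Ramp3 still fell, Rspo1 by 5.38 on the log2 scale.

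Whether the score went with different genes in the arch was asked with an interaction term over 6 sums of the 3 intimal libraries. The fit has 1 residual degree of freedom, which comes from descending a and b. Its standard errors and p-values thus hold no spread between arch libraries, and the arch was assumed to vary as the descending libraries do. Of 11693 genes tested, 24 changed more upward in the arch (0.205%) and 23 more downward (0.197%), while 808 had an unadjusted p under 0.05. Klk10 and Stmn2 were lowered further in the arch. The log2 ratio of Klk10 was -1.80 in the arch, -0.82 in descending a and -0.91 in descending b, with an interaction of -0.95 ± 0.14 (edgeR adjusted p = 1.44e-08). That of Stmn2 was -1.51, -0.44 and -0.68, with an interaction of -0.96 ± 0.14 (edgeR adjusted p = 3.48e-08). Emcn was raised further, at 1.43, 0.76 and 1.07, with an interaction of 0.53 ± 0.12 (edgeR adjusted p = 0.00951). None of these 3 was called with DESeq2, which called Lrg1 alone, or with the stricter gate, which kept 431 of the 1011 arch endothelial cells and called the 5 red cell genes alone.

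Other interactions set genes that fell with the score in the descending libraries against little change in the arch. Fabp4, a fatty acid carrier, stood at 255 CPM in members and 210 CPM in remaining arch cells, and at 66.4 against 156 CPM and 50.6 against 92.2 CPM in descending a and b, with an interaction of 1.36 ± 0.14 (edgeR adjusted p = 5.02e-17). Plvap, a component of fenestral diaphragms, was 279 CPM in both arch groups and lower in the score-high descending cells, with an interaction of 0.70 ± 0.13 (edgeR adjusted p = 0.000148). The Notch target Hey2 differed the other way, at 75.5 and 92.4 CPM in the arch against 150 and 110 CPM and 197 and 137 CPM, with an interaction of -0.78 ± 0.16 (edgeR adjusted p = 0.000517). Acta2 rose less in the arch, from 262 to 418 CPM, with an interaction of -1.15 ± 0.14 (edgeR adjusted p = 8.54e-13). The interactions of Sfrp2 (0.17 ± 0.23), Ccn1 (-0.09 ± 0.13) and Mecom (-0.002 ± 0.14) had edgeR adjusted p-values of 0.964, 0.979 and 1.00.

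Members were last compared with the score-high cells of the descending libraries, in which region, age and library cannot be told apart. Of 10669 genes tested over 3 sums, 838 passed the test (7.85%), 446 of them higher in members (4.18%) and 392 lower (3.67%), and 1984 had an unadjusted p under 0.05. Sfrp2 was higher in members by 2.72 ± 0.18 (edgeR adjusted p = 6.80e-49), a call lost with DESeq2 (adjusted p = 0.091), and its value was 3.36 without descending a and 2.31 without descending b. Also higher were Ccn1 by 0.72 ± 0.16 (edgeR adjusted p = 0.000429), Emcn by 1.24 ± 0.17 (edgeR adjusted p = 2.54e-11) and Aqp1 by 2.17 ± 0.17 (edgeR adjusted p = 2.71e-35). Klk10 was lower by 0.95, Stmn2 by 1.21 and Adra2a by 1.90 on the log2 scale. For some genes the remaining cells of these libraries differed as well. Sfrp2 stood at 45.3 CPM in remaining arch cells against 7.15 and 9.65 CPM in those of descending a and b. For Coch these values were 7.86 against 41.8 and 51.4 CPM, while Klk10 was nearly level, at 499 against 519 and 535 CPM. The contrast thus does not separate members from other arch endothelial cells. Coch, although high in both sets of score-high cells against their own neighbours, was 34.2 CPM in members and 193 and 259 CPM in the descending cells, a difference of -2.65 ± 0.22 (edgeR adjusted p = 8.60e-31). Of 16 BMP pathway genes, Smad6, Smad7, Id1, Id2 and Bmpr2 were lower in members and 0 higher. DESeq2 called 96 genes in place of 838 and did not call Ccn1.

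The largest differences between arch and descending cells were in genes that the remaining arch cells also held. Upk3b, Dntt, Myl7, Cd8a and Pcdh10 had 0 UMIs in the score-high descending cells and were at least 22.9, 20.1, 17.2, 13.6 and 11.5-fold higher in members, against a floor of 3 counts over both descending libraries. Msln, Cd3g, Cd8b1, Cd2 and Lat followed. The remaining arch cells held them too: Upk3b stood at 13.5 CPM in members and 14.9 CPM in the remaining cells, Msln at 14.3 and 12.2 CPM, and Cd8b1 at 33.8 and 43.3 CPM. These include markers of mesothelium and T cells, whose lists summed to 243 and 67.1 CPM in members. At least 3 of 6 T cell markers were found in 1.32% of members and at least 3 of 8 macrophage markers in 28.6%, with all T cell markers above 0 and Ptprc at 0 by the gate. Of the T cell genes tested 4 of 4 were higher in members, of the macrophage genes 3 of 5, and of the smooth muscle genes 5 of 6, with 1 lower. Of 19 immediate early genes, 2 were higher in members and 8 lower, Fos by 1.88 on the log2 scale. Their part in the differences between arch and descending cells was not tested. Cyp26b1, which degrades retinoic acid, and the clock genes Arntl and Npas2 had 0 UMIs in members and were at least 15.8, 11.2 and 3.88-fold lower than in the descending cells. The other 7 genes of that rank, Ccl21a, Spp1, Nme4, Baiap2l1, Id4, Sh2d4b and Zik1, were also at 0 in members and at least 5.43 to 2.95-fold lower.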

How the data were processed

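Single-cell RNA of 4 mouse aorta libraries was analysed. Per the submitters' processing notes, Cell Ranger 2.1.2 and the mm10 build were used. The files hold the authors' deposited UMI counts per gene and barcode, and a gene name was found for 27645 of 27998 identifiers. Other processing steps are not given in the sources used here.

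A barcode needed 200 or more genes and no more than 10% mitochondrial UMIs. Endothelial cells and members were chosen as the report describes. Scrublet (scanpy 1.11.5) called 8, 6, 21 and 4 doublets in descending a, descending b, arch and adventitia. These were kept, and an alternative left out the 52, 37, 50 and 598 highest scores. Levels are CPM of summed counts with 95% exact Poisson intervals.

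Summed counts were tested with edgeR 4.0.16 in R 4.3.3 (TMM factors, filterByExpr, quasi-likelihood test, Benjamini-Hochberg adjustment, threshold 0.05) and with DESeq2 1.42.0 as an alternative. The code was tested on simulated data. The labels give 6 mice for each descending library and do not say whether the pools are independent, so p-values reflect only how far a and b differ from each other, possibly for technical reasons. For the comparison of arch with descending cells the prior degrees of freedom were infinite, and the lone arch library was assumed to vary as the descending ones do. The interaction rests on the same assumption, with 1 residual degree of freedom.

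The members, gene lists and tests were chosen with earlier results of these data known. Named genes are the 6 markers, the 15 highest and 10 lowest arch ratios past the fold, the 10 largest changes in each direction of each test, and up to 4 genes of each list, first those past the threshold. Other genes of a list are named to complete its count, and genes of the score and the gate were not ranked. Lists share genes, Nos3, Thbd, Selp, Acta2, Tagln and Myl9 among them, so the counts of different lists are not independent. Promoters are RefSeq sequences of GRCm38.p6. Gene positions were read from GENCODE M21 (GRCm38). A few named genes are not reported here.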

Additional observations from a re-analysis of the deposited data

Results flagged for a closer look

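The change that goes with the score differed between the arch and the descending libraries for the genes below, by the interaction term of edgeR's quasi-likelihood test (adjusted p under 0.05). Values are the arch log2 change minus the descending one. They rest on 1 arch library, so the spread between arch libraries was not measured. DESeq2 called Lrg1 alone, and edgeR lost that call without lymphatic-like and capillary-like barcodes (2.62, adjusted p = 0.272) and with the stricter gate (3.34, adjusted p = 0.778).

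Among the 10 with the largest positive values, Adamtsl1 had 5.81, Ptn 5.44, Lrg1 4.35, Rspo1 4.08, Il33 2.59, Meox1 2.46, Ccdc141 1.96, Ifi27l2b 1.79, Igfbp5 1.49 and Emb 1.39. Lrg1 stood at 7.17 CPM in members and 1.22 CPM in the remaining arch cells, against 37.9 and 143 CPM in descending a and 13.5 and 40.0 CPM in descending b. Igfbp5 stood at 91.6 and 96.5 CPM in the arch and at 43.6 and 209 CPM in descending a, and at 56.7 and 85.5 CPM in descending b. Ptn had 0.357 CPM in score-high cells of descending a and was at 0 in those of descending b. Adamtsl1 had a group without UMIs in descending a, so no log2 ratio there, and -1.18 in descending b. For Meox1 and Ifi27l2b the log2 ratio differed in sign between descending a and b. It was -1.80 and 0.20 for Meox1, and -0.17 and 0.63 for Ifi27l2b.

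Among the 10 with the largest negative values, Hba-a1 had -3.29, Hba-a2 -3.21, Hbb-bs -2.79, Ccl5 -2.48, Hbb-bt -2.29, Alas2 -1.95, Wfdc17 -1.41, Retnla -1.34 and Acta2 -1.15. Hba-a1, Hbb-bs, Hbb-bt and Alas2 changed sign without barcodes with over 1% haemoglobin UMIs.

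Of the gene lists, the laminar flow genes Klk10 had -0.95, Gja4 -0.51 and Aqp1 0.66. Stmn2 had -0.96 and the Notch target Hey2 -0.78. Emcn had 0.53, Plvap 0.70, the plasminogen activator gene Plat 0.71, and the fatty acid carriers Fabp4 and Fabp5 had 1.36 and 0.84.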

How the results depend on the processing

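In the descending libraries 915 genes were called. DESeq2 called 218, the stricter gate (at least 5 UMIs of Pecam1 and Cdh5, fewer than 5 of the 3 fibroblast genes) 537, and the fit without the library block 115. For members against score-high descending cells, 838 genes were called, and 96 by DESeq2, 334 at percentile 80, 371 with 4000 to 15000 UMIs a cell, 326 with the stricter gate, 432 at up to 5% mitochondrial UMIs, 518 with Bmp4 alone, 508 with Thbs1 alone and 394 with the arch cut in the descending libraries. For the interaction 47 were called, and 1 by DESeq2, 19 with 4000 to 15000 UMIs, 5 with the stricter gate, 87 with Edn1 alone and 20 with Bmp4 alone. The cause of these moves was not tested. In the arch 467 genes were past the fold, and 279 with thinned cells, 239 with the stricter gate and 309 with Thbs1 alone. With thinned cells, the shares at an arch cut of 15 were 38.8%, 26.4%, 23.3% and 3.18% in arch, descending a, descending b and adventitia. At percentile 80 they were 20.1%, 12.9% and 9.86% in the first 3, at a cut of 21.1. With the stricter gate the adventitial share was 2.96%, at a cut of 13.5.

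Some named genes changed sign. In the descending libraries Lyz2 (0.13), C1qa (0.65), Hbb-bt (1.03), Tgfbi (0.37) and Wfdc17 (0.27) did so with the stricter gate, Spp1 (-2.13) and Lum (-0.011) with Edn1 alone, Lum (-0.22) and Hbb-bt (0.33) with Thbs1 alone, and Hbb-bt without barcodes over 1% haemoglobin (0.047), and its value was 0.87 without library a and -1.29 without library b. Between members and descending cells Hbb-bt (-0.087) did so with the stricter gate. In the interaction Ccl5 (0.074) did so with the stricter gate, Alas2 with Edn1 alone (0.22) and Bmp4 alone (0.44), and Hba-a1 (0.10), Hbb-bs (0.062), Hbb-bt (0.029) and Alas2 (1.69) without barcodes over 1% haemoglobin. In the arch Hba-a1 (0.13) and Hbb-bt (0.036) did so without those barcodes. Over all alternatives, 2173 values of named genes in the descending test were kept, 292 lost the call, 138 moved and 11 changed sign. Where there was a test, a kept value had the same direction and side of the threshold. Without library a or b there was no test, and a kept value lay within the SE of the main one. Of these values 51 were kept and 71 moved without library a, and 59 were kept and 67 moved without library b.

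The alternatives without haemoglobin genes, without barcodes over 1% haemoglobin and without lymphatic-like and capillary-like barcodes were chosen after seeing the data. Leaving out a descending library leaves no residual degrees of freedom, so it gives values and no test. No paired analysis was possible because the arch and descending groups share no replicate numbers. Score-high and remaining cells of the same library were already compared with the library as a block. Genes under about 100 UMIs, such as Abcc12 and Angpt2, are limited by depth, and the adventitia held 249 endothelial cells.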

Other observations

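In the adventitial library, whose own percentile 70 of the score lay at 1.18, the 75 cells at or above it and the 174 remaining endothelial cells were in no comparison. The score itself chose the 75 cells. Each score gene had 1 UMI in the 174. Selp, a venous and platelet adhesion gene, stood at 213 and 10.3 CPM, Procr, the protein C receptor gene, at 210.0 and 25.8 CPM, and Prox1, the lymphatic factor, at 88.1 and 14.2 CPM. Selp was 171 CPM in the arch members, which had no Prox1 UMI.

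By edgeR, 3.92% of all genes tested in the descending libraries rose and 4.4% fell. Of 10 interferon response genes tested there, Ifit2, Ifit3, Gbp2 and Bst2 rose and Ifitm3 fell. Of 6 fatty acid uptake genes, Fabp4, Fabp5 and Cd36 fell. Of 7 proliferation genes, Top2a and Birc5 fell. DESeq2 called 0 of the interferon and 0 of the proliferation genes, and 1 of the fatty acid uptake genes. Of the other cell type lists, Lum and Serpinf1 of 5 fibroblast markers rose, C1qa and Lyz2 of 5 macrophage markers were called lower, Hbb-bt of 5 red cell genes was called lower, and 0 of 2 B cell, 1 T cell, 2 valve and 1 platelet markers passed the test. With the stricter gate C1qa was higher by 0.65 (edgeR adjusted p = 0.0147) and Lyz2 had 0.13. Hbb-bt was -1.31 in descending a and 0.85 in descending b, and DESeq2 called neither it nor C1qa nor any fibroblast marker.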
